A study of Mus musculus with 5 samples.

Results

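Lyz1, Lyz2, Saa3 and Slpi are 4 genes of secreted antimicrobial or acute-phase proteins, chosen by symbol from the 28692 gene identifiers of the droplet tables and from the 51912 genes of a plate-based table. They were chosen with their earlier values in these libraries known, so their levels are given as a description and no test was made of them. All 4 were found in every table. They were followed in mouse kidneys through unilateral ureteric obstruction (UUO), a block of the outflow of 1 kidney that was reversible here. The mice were of the C57/BL6 strain and 8 weeks old. The 4 droplet libraries came from sham surgery (day 0), day 2 of UUO, day 7 of UUO, and experimental day 14, which was 7 days after reversal. Each time point was a single library made from 3 pooled mice, so differences between libraries have no replicate check, and every interval covers counting error only. Kidneys had been digested on ice and sorted for live cells with DAPI. A further sample held 768 Smart-seq2 wells on 8 plates with all time points mixed.

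The labels name no cell types, so classes were called from marker genes. Of 13823 kept droplet cells, 3753 were mononuclear phagocytes (monocytes, macrophages and dendritic cells), namely 68 of 3933 in the sham library, 557 of 2207 and 2490 of 4447 in those of days 2 and 7, and 638 of 3236 in the reversed one. These cells gave 256872, 6220853, 17748004 and 5103045 unique molecular identifiers (UMIs, counts of captured transcripts), so the sham sum was the least precise. Of the markers that called them, Tyrobp, a myeloid adaptor, was found in 98.5 to 99.8%, while in sham Itgam was found in 22.1%. Slc34a1, a phosphate transporter of the proximal tubule, was found in 94.8 to 99.2% of the cells called proximal tubule with its help. Neutrophils numbered 0, 18, 38 and 18. Proximal tubule markers summed to 2943, 254, 327 and 1235 CPM in the phagocytes of the 4 libraries, and the median mitochondrial share of kept cells was 33.7%, 9.80%, 2.98% and 8.36%. The part of either in the values below was not tested. Levels are CPM, the UMIs of a gene scaled to the summed UMIs of the same cells, with exact Poisson 95% intervals. No libraries shared more than 39 cell barcodes.

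Lysozyme breaks bonds in the peptidoglycan of bacterial cell walls. Mice carry neighbouring genes for it: Lyz2 is the macrophage form and a standard marker of the myeloid lineage, while Lyz1 is best known from Paneth cells of the gut. Saa3 is a serum amyloid A gene transcribed outside the liver, in macrophages and other inflamed tissue, and serum amyloid A proteins are classical acute-phase reactants. Slpi encodes a secreted inhibitor of leukocyte proteases such as neutrophil elastase, with whey acidic protein (WAP) domains. Transcription factors of the C/EBP family take part in the control of many myeloid and acute-phase genes.

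In GRCm38, Lyz1 (ENSMUSG00000069515) lies on the minus strand of chromosome 10 from 117287797 to 117292868, and Lyz2 (ENSMUSG00000069516) beside it from 117277331 to 117282321, with 5475 bases between them. Saa3 (ENSMUSG00000040026) spans 46711998 to 46715700 on chromosome 7. Slpi (ENSMUSG00000017002) spans 164354070 to 164389095 on chromosome 2. Both are on the minus strand, and the first listed transcript of each of the 4 genes has 4 exons. The sequences just before the start of the lysozyme genes are shown because the pair have very similar transcripts and yet Lyz1 UMIs were only 0.275 to 1.25% of Lyz2 UMIs in the phagocytes of the 4 libraries. They are from RefSeq (GRCm38.p6), run 5′ to 3′ on the gene's strand, and end 50 bases before the RefSeq start. Capitals mark bases that were identical where the pair were aligned with gaps. Lyz1 is chr10:117292918-117293118 and Lyz2 is chr10:117282322-117282522.
Lyz1: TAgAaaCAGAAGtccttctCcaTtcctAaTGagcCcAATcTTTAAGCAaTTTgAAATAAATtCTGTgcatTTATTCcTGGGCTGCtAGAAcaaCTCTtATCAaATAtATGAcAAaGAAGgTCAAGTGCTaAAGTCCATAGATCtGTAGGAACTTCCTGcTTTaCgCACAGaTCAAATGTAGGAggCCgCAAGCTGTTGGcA
Lyz2: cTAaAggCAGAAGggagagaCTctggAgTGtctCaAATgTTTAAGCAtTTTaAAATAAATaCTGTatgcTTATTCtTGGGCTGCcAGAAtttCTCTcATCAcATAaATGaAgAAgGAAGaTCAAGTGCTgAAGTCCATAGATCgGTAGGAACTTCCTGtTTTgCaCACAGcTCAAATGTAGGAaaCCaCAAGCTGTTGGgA
Over the 250 bases before the start, 200 were identical (80%). Identity was 54% in the 50 bases farthest from the start and 100% in the last 50, of which only the first base is printed. The transcripts themselves were 96.0% identical over 1262 aligned bases, and 16.1% of all 50-base windows of the Lyz1 transcript also occurred in Lyz2. In the last 400 bases, nearest the 3' end that the droplet libraries read, the share was 19.1%. Reads from such windows cannot be told apart between the genes, and how far this moved the Lyz1 and Lyz2 counts was not measured.

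The windows before Saa3 and Slpi are shown for a C/EBP core, searched as TTNNGNAA on both strands, because C/EBP genes stand in the list of inducers below. Capitals mark matches. Saa3 is chr7:46715701-46715926, which ends 25 bases before the RefSeq start, and Slpi is chr2:164356508-164356757, which lies inside the longer annotated Slpi gene.
Saa3: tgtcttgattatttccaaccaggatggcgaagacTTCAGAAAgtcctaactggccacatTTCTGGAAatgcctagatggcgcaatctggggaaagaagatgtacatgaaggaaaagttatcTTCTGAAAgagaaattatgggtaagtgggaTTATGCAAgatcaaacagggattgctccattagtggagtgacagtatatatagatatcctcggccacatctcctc
Slpi: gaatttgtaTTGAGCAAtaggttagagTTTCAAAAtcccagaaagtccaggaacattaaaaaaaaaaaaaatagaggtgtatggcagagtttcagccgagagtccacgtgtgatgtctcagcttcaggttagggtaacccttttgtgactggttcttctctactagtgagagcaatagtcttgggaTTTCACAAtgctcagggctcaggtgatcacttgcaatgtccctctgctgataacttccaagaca
Saa3 had 4 matches and Slpi had 3, against 1 each in Lyz1 and Lyz2. At least 1 match was present in 36.8% of 32851 windows of 250 bases before gene starts, a share that does not place the counts of 4 and 3. A match is a run of letters, not a shown binding site. Other motifs were searched too. A form of the site of the transcription factor NF-kappaB had 0 matches in each of the 4 windows, although 45.8% of windows held it. The E-box, a further motif, had 1 match in Slpi and 0 in Lyz1, Lyz2 and Saa3, and 6.02% of windows held it. None of the 4 windows held GAGGAA, a core of sites of the myeloid factor PU.1, on either strand, which 23.3% of windows held.

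In mononuclear phagocytes Lyz2 was abundant in all 4 libraries, whereas Lyz1, Saa3 and Slpi were low and each had its own course over the libraries. Lyz2 stood at 7802 CPM in sham (7464 to 8151), 9591 at day 2 (9514 to 9668), 10217 at day 7 (10170 to 10264) and 13552 in the reversed library (13452 to 13654). The counting intervals did not overlap between any libraries. The step from day 2 to day 7 was small and turned to a log2 ratio of -0.049 with equal weight per cell, -0.042 in thinned cells and -0.0018 less the level in other classes. Lyz1 stood at 50.6 CPM in sham (26.9 to 86.5), 31.7 at day 2 (27.4 to 36.4), 28.1 at day 7 (25.6 to 30.6) and 169 once the block was removed (158 to 181). The reversed library was the high one, and the intervals of the other 3 libraries met. Saa3 had 0 UMIs in the 68 sham phagocytes, where 3 UMIs would be 11.7 CPM. It then stood at 104.8 CPM at day 2 (96.9 to 113), 71.6 at day 7 (67.7 to 75.7) and 13.9 at experimental day 14 (10.9 to 17.5). Day 2 was the high library, and no intervals of the obstructed and reversed libraries overlapped. Slpi stood at 50.6 CPM in sham (26.9 to 86.5), 43.1 at day 2 (38.1 to 48.6), 27.6 at day 7 (25.2 to 30.1) and 12.0 in the reversed library (9.14 to 15.4). The sham interval overlapped both day 2 and day 7, and the reversed library was the low one.

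**Figure D1:**
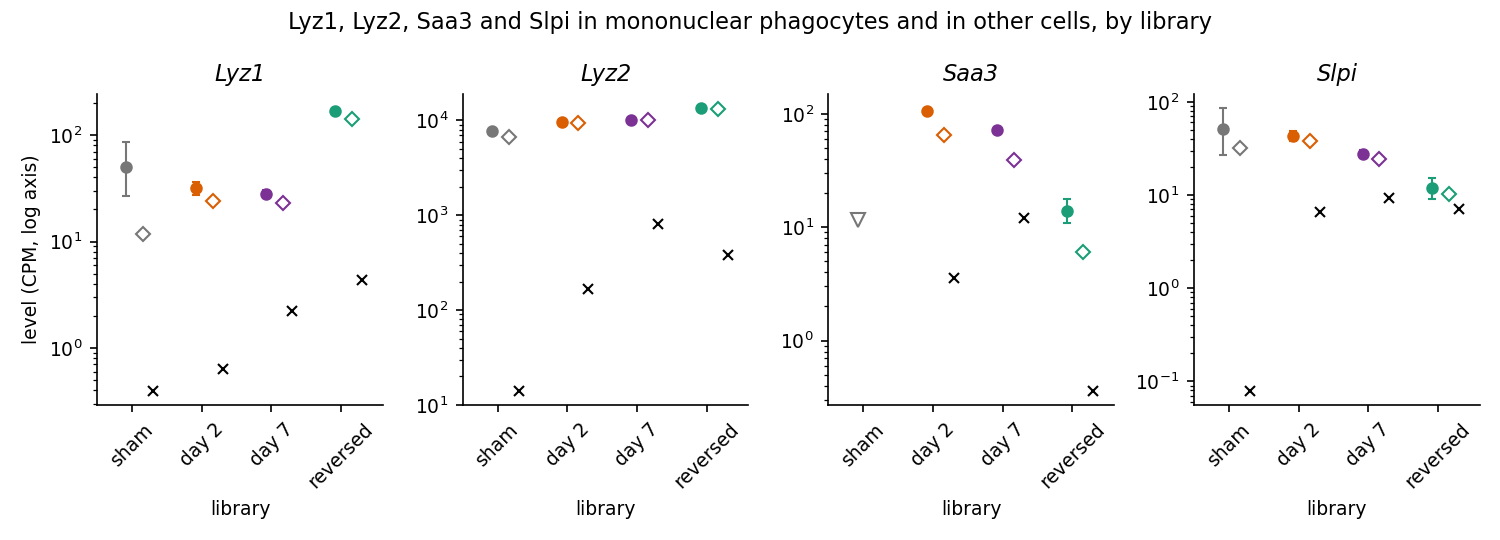
Levels of the 4 genes in mononuclear phagocytes (filled points, CPM on a log axis, bars are exact Poisson 95% intervals) in the sham, day 2, day 7 and reversed libraries, 1 library each. Open diamonds leave out the phagocyte with the most UMIs of that gene, crosses are all cells outside the phagocyte, neutrophil and unassigned classes, and the open triangle marks 3 UMIs where none was counted. Lyz2 stayed between 7802 and 13552 CPM, Lyz1 was at 169 CPM after reversal, and Saa3 ran from 104.8 CPM on day 2 to 13.9 CPM after reversal.

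On day 2 of obstruction against sham, Saa3 was the member past 2-fold, at least 8.97-fold higher against a floor of 3 UMIs in sham. That bound was 5.61-fold without the top cell of each library and 2.97-fold when each cell was thinned to 1000 UMIs. Among the 9140 genes with at least 30 UMIs in this comparison, 25.9% were past 2-fold in either direction, 17.8% higher and 8.07% lower, and the median log2 ratio was 0.16. Because the members were chosen with these values known, no meaning attaches to their count against that share, here or in the comparisons below. Log2 ratios, with 1 CPM added to each level, were -0.66 for Lyz1 (-1.45 to 0.25), 0.30 for Lyz2 (0.23 to 0.36) and -0.23 for Slpi (-1.01 to 0.68). The sham level of Lyz1 rested on 1 cell with 10 of 13 UMIs. Without the top cell of each library the Lyz1 ratio was 0.97, and with equal weight per cell it was -1.21. The Slpi ratio turned to 0.26 without the top cells and to 0.54 with equal weight per cell.

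From day 2 to day 7 no member was past 2-fold, against 10.9% of 11995 genes, 8.4% higher and 2.51% lower. Log2 ratios were -0.17 for Lyz1 (-0.40 to 0.069), 0.091 for Lyz2 (0.078 to 0.10), -0.54 for Saa3 (-0.68 to -0.41) and -0.63 for Slpi (-0.84 to -0.41). Lyz1 was at -1.44 when each cell was thinned to 1000 UMIs. The median of all genes was 0.083.

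After reversal against day 7, 3 of the 4 members were past 2-fold, against 2.98% of 12087 genes, 1.94% higher and 1.04% lower. As above, the members were chosen with these values known, and no meaning attaches to this count. Lyz1 was higher, with a log2 ratio of 2.55 (2.39 to 2.71). Saa3 was lower at -2.28 (-2.62 to -1.96), and Slpi was lower at -1.14 (-1.52 to -0.78). Lyz2 was at 0.41 (0.39 to 0.42). Slpi lay near the 2-fold line and was inside it, at -0.98, after thinning to 1000 UMIs. Against sham, 22.4% of 9245 genes were past 2-fold in the reversed library, 17.6% higher and 4.84% lower, and so were Lyz1 and Slpi of the members. Saa3 was past 2-fold only with the 1 CPM added to a sham level of 0, and not by its bound. Here Lyz1 was at 1.72 (0.95 to 2.61), Lyz2 at 0.80 (0.73 to 0.86) and Slpi at -1.99 (-2.85 to -1.04), and Saa3 was at least 1.19-fold higher than the sham floor. The Lyz1 value was 3.48 without the top cell of each library and 0.26 when every cell had equal weight. Saa3 was at 0.52 times the sham floor without the top cells. The day 2 and reversed comparisons with sham share the sham library.

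Lyz2 was spread over nearly the whole class, and the other 3 genes were concentrated in a few cells. Lyz2 had a UMI in 63 of 68 sham phagocytes, 541 of 557 at day 2, 2488 of 2490 at day 7 and 630 of 638 in the reversed library. Its median count per phagocyte was 9, 64, 48 and 59 UMIs. Lyz1 had a UMI in 5.88%, 11.1%, 7.83% and 14.4% of phagocytes, and in 1.47%, 2.87%, 1.53% and 4.70% when each cell was thinned to 1000 UMIs. In sham proximal tubule cells, which should lack the gene, the unthinned share was 0.126%, and after reversal it was 1.61%, at median depths of 2625 and 4534 UMIs against 3204.5 and 6900 in phagocytes. After reversal 26 cells with at least 3 Lyz1 UMIs held 91.2% of the gene's phagocyte UMIs, and the top 3 cells had 144, 139 and 105. Outside phagocytes no kept cell had more than 2 Lyz1 UMIs.

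Saa3 had the largest share in a single cell of the 4 genes in the day 2, day 7 and reversed libraries, although the top 3 cells of day 2 held like shares of Lyz1 (59.9%) and Saa3 (59.4%). On day 7, 1 cell of 7486 UMIs held 577 of the 1271 phagocyte Saa3 UMIs, which was 7.71% of everything counted in that cell, and the next cells had 137 and 106. On day 2 the top cell held 245 of 652, followed by 92 and 50. After reversal 2 cells with 40 and 26 UMIs held all but 5 of 71. Without the top cell of each library, Saa3 was at least 5.61-fold above the sham floor on day 2. Saa3 had a UMI in 11.8%, 7.67% and 1.10% of phagocytes on day 2, on day 7 and after reversal, and in 3.77%, 1.57% and 0.313% of thinned cells. In sham, 0 of 68 cells, at a median of 3204.5 UMIs, allows a share of cells with a UMI of up to 4.41%, taken as 3 cells of 68. The share in proximal tubule cells was 1.72%, 6.42% and 0.0894%, and on day 7 it was 1.60% after thinning. That class had 187 cells on day 7, and 1.60% lies inside the interval of the thinned phagocyte share (1.12 to 2.13%). At equal depth the order of phagocytes and tubule on day 7 was thus not resolved. Median depths on day 7 were 6585 and 4886 UMIs. The day 7 difference was in the cells with many UMIs, since 27 phagocytes had at least 3 Saa3 UMIs and held 86.6% of them, while no proximal tubule cell had more than 1. Slpi was less uneven: 21 cells on day 2 and 36 on day 7 with at least 3 UMIs held 66.4% and 53.4%. It had a UMI in 7.35%, 17.6%, 9.72% and 5.02% of phagocytes and in 0.0266%, 3.79%, 4.68% and 1.65% of the cells assigned to classes other than phagocytes and neutrophils.

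**Figure D2:**
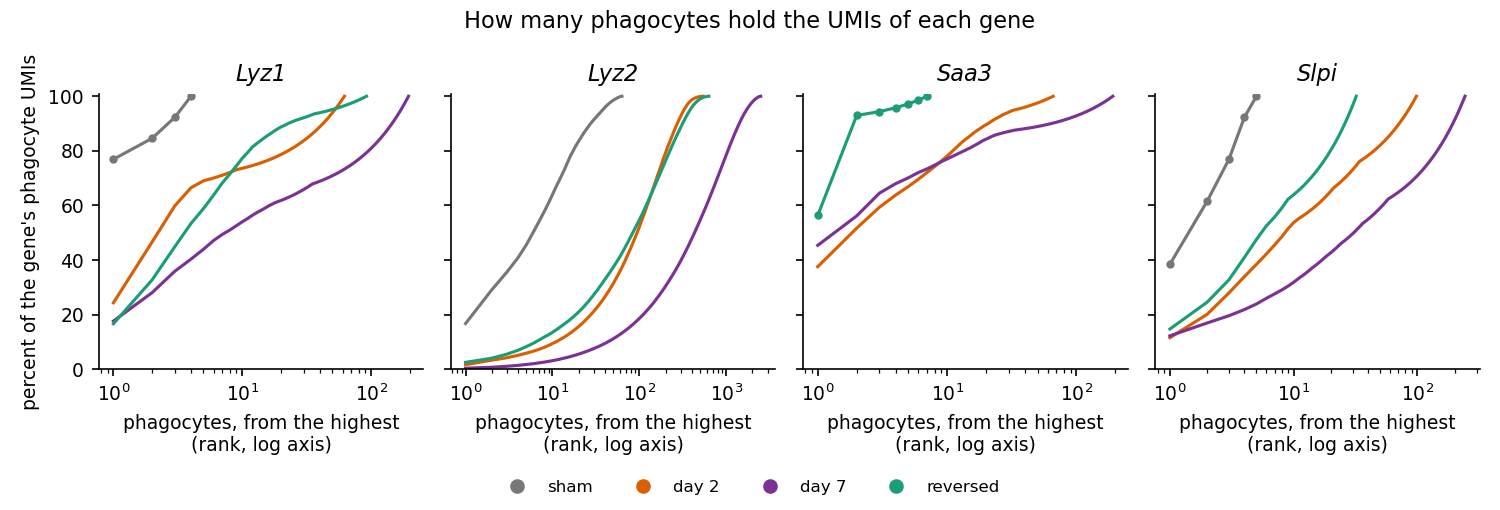
Cumulative percent of the phagocyte UMIs of each gene (vertical axis) against phagocytes ranked from the highest count (log axis), 1 line per library. The day 7 Lyz2 line starts at 0.404% for the top cell, whereas the top Saa3 cell holds 45.4% on day 7 and 56.3% after reversal; sham has no Saa3 line.

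Ly6c2-high monocytes, the cells that enter tissue from blood, were the richest gated subset for Lyz2 in every library. They were called by a score over several genes, so that single cells can be low in Ly6c2. Lyz2 was at 39368 CPM in the 5 sham cells of this gate, 26332 in 110 cells of day 2, 25197 in 108 cells of day 7 and 32426 in 23 cells of the reversed library. In C1q-high macrophages, called by a score over the chains of complement C1q and other macrophage genes, so that single cells can be low in C1q, it was at 7097, 8005, 12466 and 18039 CPM, so the ratio between the 2 subsets was smallest after reversal. The gate shares also differed, as Ly6c2-high monocytes were 19.7% of phagocytes on day 2 and 4.34% on day 7, and C1q-high macrophages were 45.1% and 71.8%. Within a subset the day 7 level was thus above day 2 in C1q-high macrophages and below it in monocytes, around the near-equal sums. Ace-positive monocytes, the patrolling kind, were between 9677 and 12553 CPM. Type 1 conventional dendritic cells were at 603, 1381 and 1409 CPM from day 2 to reversal, and type 2 at 1299, 1893 and 2894. Without the cell with the most Lyz2 UMIs, type 1 was at 855 CPM after reversal and type 2 at 731 CPM on day 2, and in cells that passed 1 gate and no other, type 2 was at 572, 1362 and 1478 CPM. On day 7 these dendritic levels stood beside 804 CPM in the cells assigned to classes other than phagocytes and neutrophils.

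Lyz1 levels by subset rested on few cells. On day 2, Ly6c2-high monocytes had 140 of the 197 UMIs, at 157 CPM (132 to 185), against 13.6 CPM in C1q-high macrophages. On day 7 the same gates were at 15.6 and 37.1 CPM, and after reversal at 23.2 and 125 CPM. Among C1q-high cells that passed no other gate, Mmp12 included, the day 7 and reversed levels were 22.4 and 33.5 CPM. On day 2, 3 monocytes with 48, 44 and 26 UMIs held 118 of the 140, and the level was 104 CPM without the first alone. Cells with at least 2 UMIs of Mmp12, a macrophage elastase, were the clearest place for Lyz1 later on. They were at 4.47 CPM at day 2, 71.1 at day 7 and 521 in the reversed library, against 37.6, 21.7 and 74.2 CPM in phagocytes outside the gate. After reversal, this gate held 16.1% of phagocytes and 65.5% of Lyz1 UMIs, and its level without the top cell was 395 CPM. The 72 reversed phagocytes that matched none of the monocyte, macrophage or dendritic subsets by score stood at 697 CPM, with the 2 richest Lyz1 cells of all libraries among them. The Mmp12 gate overlaps these subsets, and the richest of them, with 144 Lyz1 UMIs and 52 of Mmp12, counts in both levels. A type 2 dendritic level of 111 CPM after reversal came from 1 cell with 47 of 48 UMIs.

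Saa3 was high in Ly6c2-high monocytes, at 315 CPM on day 2 (279 to 354) and 278 on day 7 (241 to 320), in 17 and 14 cells with at least 3 UMIs. After reversal its 232 CPM came from a single cell. In C1q-high macrophages it was at 108, 82.5 and 9.91 CPM from day 2 to reversal, and at 32.0, 34.2 and 1.03 without the top cell of each library. In those that passed no other gate the day 2 level was 6.41 CPM. Mmp12-positive cells were low, at 6.26 and 7.85 CPM on days 2 and 7, and their 26 UMIs after reversal were in 1 cell. On day 7 the gate for Ccl8 and Stab1, genes of a perivascular-type macrophage, was at 234 CPM, of which 137 of 197 UMIs were in 1 cell, and 72.4 CPM without it. That cell passed mainly by other genes of the list, since it and the cells with 577 and 106 Saa3 UMIs had 1 Ccl8 UMI between them. No type 1 or type 2 dendritic cell had more than 2 Saa3 UMIs.

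Among the phagocytes of days 2 and 7, Slpi was highest in plasmacytoid dendritic cells, followed on day 2 by Ly6c2-high monocytes, and Ace-positive monocytes stood at 185 CPM on day 7, with 13 of 25 UMIs in 1 cell. Ly6c2-high monocytes were at 474 CPM in sham (11 UMIs in 5 cells), 124 at day 2, 166 at day 7 and 58.0 in the reversed library. C1q-high macrophages were at 25.1, 16.5 and 5.13 CPM from day 2 to reversal, the first at 8.24 CPM in cells of no other gate, and had 0 UMIs in 33 sham cells, where 3 UMIs would be 30.5 CPM. Plasmacytoid dendritic cells, the interferon producers marked by Siglech, numbered 8 on day 2 and 17 on day 7 and were at 669 CPM (464 to 936) and 702 CPM (555 to 876). Without the cell with the most Slpi UMIs, the day 2 level was 287 CPM and the day 7 level 521 CPM. This gate was 0.683% of day 7 phagocytes and held 78 of their 489 Slpi UMIs. The intervals for sham monocytes and for plasmacytoid cells overlap, so their order is not resolved. Conventional dendritic cells of types 1 and 2 lay between 2.32 and 14.6 CPM outside the sham library.

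**Figure D3:**
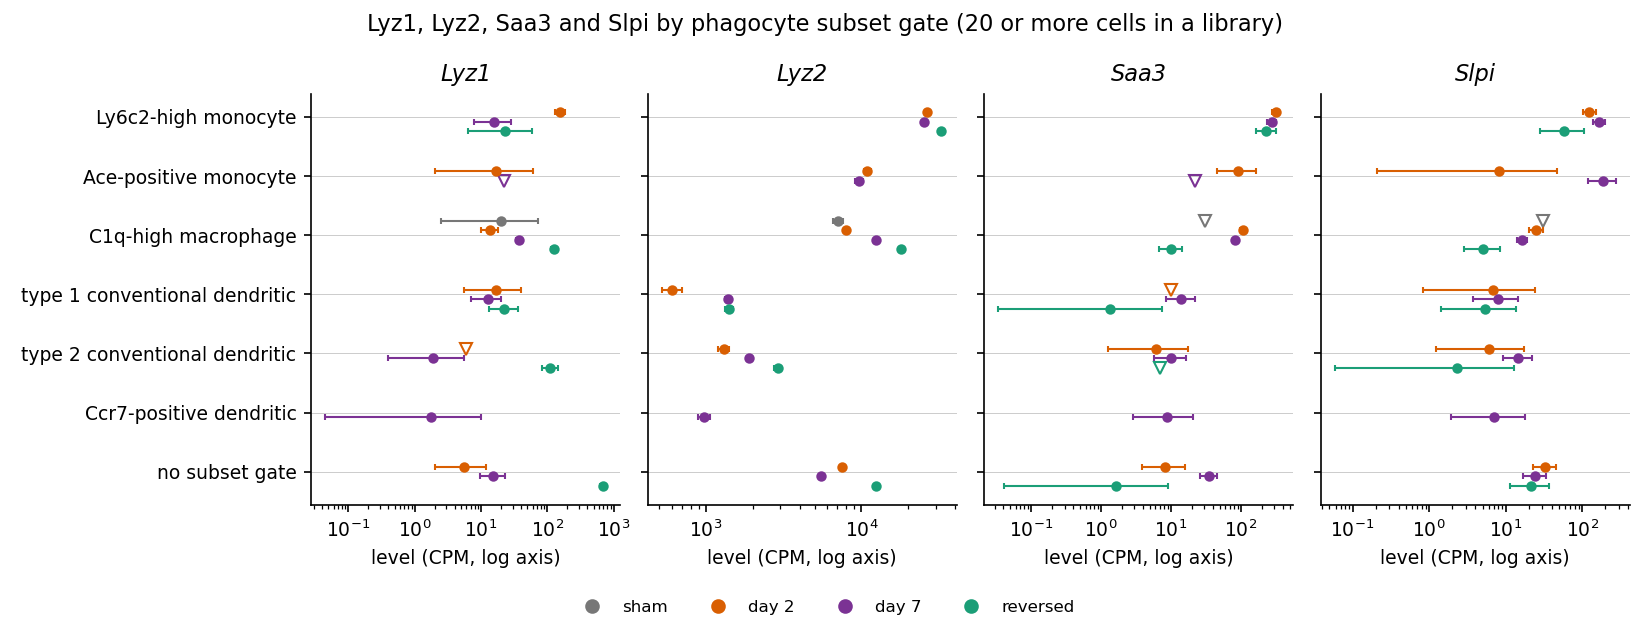
Levels (CPM, log axis, exact Poisson 95% intervals) of the 4 genes in phagocyte subset gates with at least 20 cells in a library, coloured by library; open triangles mark 3 UMIs where none was counted. Ly6c2-high monocytes were highest for Lyz2 in the day 2, day 7 and reversed libraries, with 25197 to 32426 CPM, and Lyz1 was at 125 CPM in C1q-high macrophages and 697 CPM after reversal in phagocytes of no scored subset, some of which pass the Mmp12 gate.

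The cells that carried each gene differed in their other transcripts. These genes were compared between cells with at least 3 UMIs of a member and cells with 0, as a description. The 18 Lyz1-rich cells of day 7 were led by Fn1 (fibronectin, 865 against 94.3 CPM), Retnla (a marker of alternative activation, 397 against 61.6), Ear2 (an eosinophil-associated ribonuclease, 1067 against 177) and Mmp12 (984 against 164). The 26 of the reversed library were led by Lpl (lipoprotein lipase, 2267 against 343), Fn1 (677 against 103), Spp1 (osteopontin, 4373 against 735), Ear2 and the chemokine Ccl6 (3394 against 644). These cells were deeper, with medians of 9175 and 9826 UMIs against 6428 and 6544. The 27 Saa3-rich cells of day 2 were led by Lrg1 (a secreted leucine-rich glycoprotein, 387 against 32.2), Thbs1 (thrombospondin, 564 against 56.4), Hp (haptoglobin, 750 against 116) and Chil3 (a chitinase-like protein of monocytes and alternatively activated macrophages, 3470 against 541). On day 7 the leaders were Prtn3 (a granule protease, 206 against 5.66), Slpi (474 against 22.3), Chil3 (1087 against 55.9) and F13a1 (a coagulation factor subunit, 886 against 45.6). Slpi-rich cells of day 2 were led by Ly6c2 (818 against 64.1), Lrg1 and S100a8 (1107 against 107), and those of day 7 by Chil3 (773 against 38.9) and Ly6c2 (1155 against 73.3). Igkc, an immunoglobulin light chain, had a larger day 7 ratio at 17508 against 155 CPM, but it had a UMI in 22 of the 36 cells and in 61.7% of the cells without Slpi. Its higher level thus came without a higher share of cells. Under a stricter rule, a phagocyte score 2 times the next, 372 of the 489 day 7 Slpi UMIs remained. Whether cells of another class or doublets were in the gate was not tested.

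Cells rich in more than 1 of the genes were counted as a description. Of the cells with at least 3 UMIs, 9 were rich in both Saa3 and Slpi on day 2 (of 27 and 21), 8 on day 7 (of 27 and 36) and 2 after reversal (of 2 and 6). The top Saa3 cell of day 7 also had the most Slpi of any day 7 cell, 60 UMIs. No phagocyte of any library had at least 3 UMIs of both Lyz1 and Saa3, with 5 and 27 such cells on day 2, 18 and 27 on day 7 and 26 and 2 after reversal. These numbers are too small for 0 to show that the genes were apart, and the top Saa3 cell of day 7 had 2 Lyz1 UMIs. Every Lyz1-rich cell also had Lyz2, and the Lyz1 share of the 2 lysozymes in these cells ran from 0.431 to 42.9% after reversal, with a median of 9.47%. Many cells rich in Lyz2 lacked Lyz1: of 97 reversed phagocytes with at least 200 Lyz2 UMIs, 61 had no Lyz1 UMI and 14 had at least 3.

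Outside the phagocytes, Slpi was highest in neutrophils, short-lived granulocytes marked by S100a8 and Csf3r. Neutrophil Slpi was at 2437 CPM at day 2 (2074 to 2845), 1694 at day 7 (1484 to 1925) and 1075 in the reversed library (849 to 1344), and no intervals overlapped. It was found in 15 of 18, 34 of 38 and 13 of 18 neutrophils. These few cells held 31.5% of all Slpi UMIs of kept cells on day 2 and 24.8% on day 7. Neutrophil Lyz2 was at 3472, 4249 and 3379 CPM, below phagocytes in each library. Lyz1 was at 1, 1 and 0 UMIs in neutrophils, and of the 17 neutrophil Saa3 UMIs of day 7, 16 were in 1 cell. The neutrophil marker list summed to 54.5, 1258, 563 and 663 CPM in phagocytes of the 4 libraries, with 8 of 12 markers at 0 in sham and none at 0 elsewhere. Its part in the Slpi values of phagocytes was not tested.

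Lyz2 was also detected in the other assigned classes, and unassigned cells are left out of the values that follow. Over those with at least 20 cells, and so without the 10 reversed NK cells at 594 CPM, it ran from 0 to 14.6 CPM in sham, 155 to 292 at day 2, 678 to 1063 at day 7 and 290 to 487 in the reversed library. Phagocytes were 554-fold, 57.4-fold, 12.7-fold and 35.3-fold above all cells assigned to classes other than phagocytes and neutrophils, the smaller classes included. Summed Lyz2 over the summed C1q chains, whose genes also mark phagocytes, was 1.06 in day 7 phagocytes and between 0.587 and 1.11 in the day 7 T, NK and B cells, endothelium, fibroblast or mural cells and tubule classes. A Lyz2 UMI was seen in 63.3% of the other cells on day 2 and 95.1% on day 7, against 4.15% in sham. Saa3 in the same cells was at 3.57, 12.0 and 0.360 CPM from day 2 to reversal, and Slpi at 6.51, 9.35 and 7.06. Of the 98 Slpi UMIs behind the last value, 59 were in 1 endothelial cell.

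**Figure D4:**
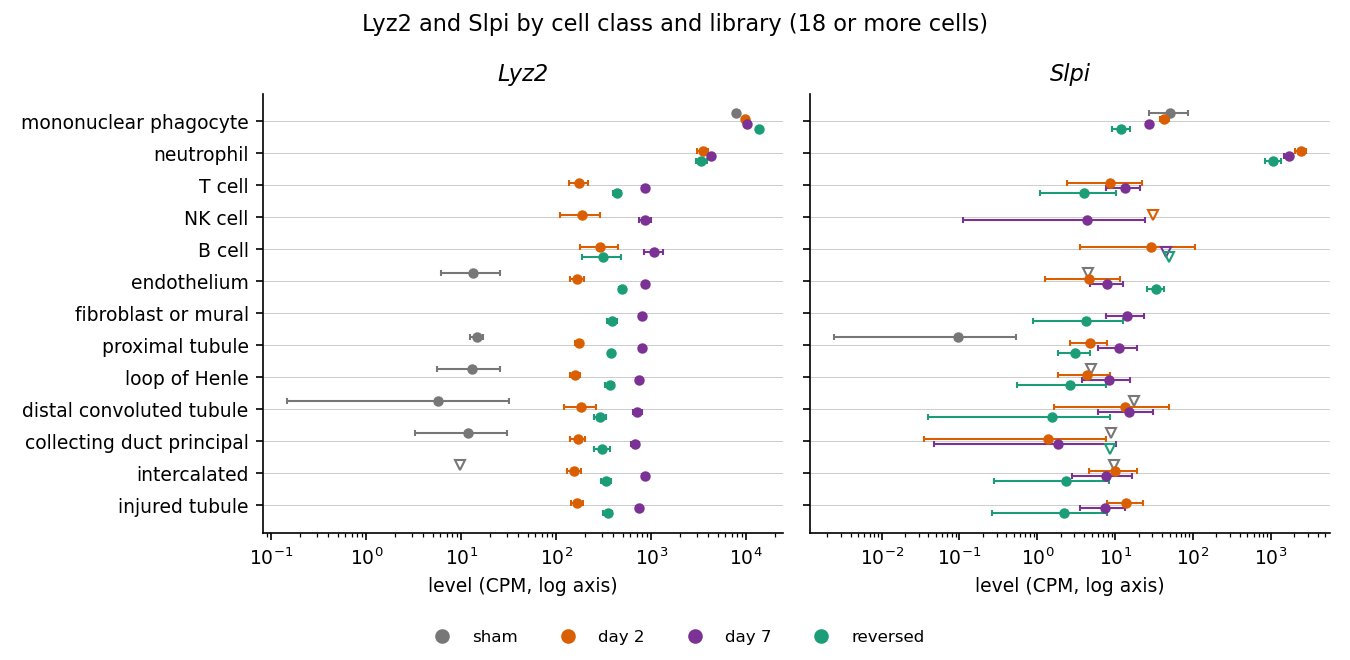
Levels (CPM, log axis, exact Poisson 95% intervals) of Lyz2 and Slpi by cell class and library, for classes of at least 18 cells; open triangles mark 3 UMIs where none was counted. Outside phagocytes and neutrophils, Lyz2 lay in the assigned classes of at least 20 cells at 678 to 1063 CPM on day 7, and Slpi peaks in neutrophils at 1075 to 2437 CPM.

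High levels of Saa3 and Slpi in single classes rested on few cells. Fibroblast or mural cells of day 7 had Saa3 at 53.1 CPM (39.8 to 69.4), with 53 UMIs in 16 of 91 cells and up to 23 in 1 cell. In the reversed library they had 0 Saa3 UMIs in 87 cells. Endothelial Slpi after reversal was at 33.1 CPM, but 59 of its 63 UMIs were in 1 cell, and the level without it was 2.11 CPM.

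The relatives of the members were examined as lists that had been chosen with earlier results of these data known, and the calls below have no test. None of 8 other lysozyme-family genes and none of Saa1, Saa2 and Saa4 reached 30 UMIs in phagocytes in any comparison. Saa1, a liver acute-phase gene, was instead found in day 2 proximal tubule cells, with 57 UMIs at 18.1 CPM. On day 2 against sham, 7 of 10 measured granule and antimicrobial genes were past 2-fold higher and 1 lower, with a median log2 ratio of 2.38 against 0.16 for all genes. The neutrophil marker sum in phagocytes moved with this list, from 54.5 to 1258 CPM, and S100a8, S100a9 and Mmp9 stand in both lists; its part was not tested. With the 4 genes that had no sham UMI set to their lower bound against 3 UMIs, the median was 1.10, and 1 of the 4, Mmp9, had a bound under 2-fold. S100a8 (a calcium-binding alarmin) was at least 12.7-fold and Lcn2 (lipocalin 2, which binds bacterial siderophores) at least 7.13-fold above the sham floor, and Chil3 was at 665 against 42.8 CPM. Pglyrp1, a peptidoglycan recognition protein, was the lower one at 22.2 against 85.6 CPM. Of 18 inducers and regulators of the acute phase in the files, 16 were measured, with a median log2 ratio of 0.14, and 4 were higher, beside 17.8% of all genes, and none lower: Socs3 (a feedback inhibitor of cytokine signalling, log2 ratio 2.98), Cebpb (1.58), Il1b (1.33) and Nfkbia (1.10).

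On day 7 against day 2, where 8.4% of all genes were past 2-fold higher and 2.51% lower, 2 of 10 granule genes were lower, Chil3 (log2 ratio -3.20) and Mmp8 (a collagenase, -1.41), and none higher. Among 6 measured acute-phase genes, Cp (ceruloplasmin, 3.37) and C3 (complement, 1.58) were higher and Hp (-1.12) lower. Cebpb was lower at -1.63, the single call among 17 regulators. After reversal against day 7, where 1.94% of all genes were past 2-fold higher and 1.04% lower, 5 of 10 granule genes were lower and none higher, with a median log2 ratio of -0.81 against -0.034 for all genes: S100a8 (-1.34), S100a9 (its partner, -1.54), Lcn2 (-1.54), Prtn3 (-1.13) and Mmp9 (a gelatinase, -1.48). Acute-phase C3 (-1.08), Lbp (a lipopolysaccharide-binding protein, -1.18) and Serpina3n (a protease inhibitor, -1.01) were lower too, of 6 measured. Il6, a cytokine that induces the acute phase, was the single call among 18 regulators, higher at 1.07 on 25 and 32 UMIs.

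After reversal against sham, 3 of 8 measured granule genes were past 2-fold higher and 1 lower, 3 of 4 acute-phase genes higher and 1 lower, and 5 of 16 regulators higher and none lower, beside 17.6% and 4.84% of all genes. The list medians were 0.63, 2.14 and 0.26 against 0.13 for all genes, and the acute-phase median was 1.14 with the gene at 0 in sham at its bound. Socs3 (2.89), Il1b (1.75) and Nfkbia (1.28) were higher here as well as on day 2, in comparisons that share the sham library. S100a8 was at least 5.05-fold above the sham floor, whereas Lcn2 had a bound of 1.86-fold. Hp was lower, at a log2 ratio of -2.40.

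WAP-domain genes, the relatives of Slpi, went separate ways. Wfdc17, a macrophage gene, was the most abundant at 1475, 1093, 1430 and 1169 CPM in the 4 libraries and was past 2-fold in none of the comparisons. Wfdc21 was at 0 UMIs in sham, 25.4 CPM at day 2, 6.93 at day 7 and 0.196 in the reversed library, highest on day 2 and lowest after reversal among these 3 libraries as Saa3 was, and its level in sham was not resolved. Wfdc15b was at 70.1, 21.1, 9.30 and 37.0 CPM, low on day 7. Wfdc2, an epithelial secretory gene, was at 71.7 CPM in day 2 phagocytes and at 2006 CPM in the principal cells of the collecting duct.

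The genes most like each member were named by Pearson correlation of log2 CPM over 42 sums of class and library, among 13368 genes. These sums share libraries and depth and may share free RNA, which was not measured, and the value is a description. For Lyz2 they were C1qa (r = 0.96), C1qb, Wfdc17, Plbd1 and Ccl9, of which C1qa and C1qb were also class markers. For Lyz1 they were Tnip3 (0.84), Nlrp1b, Mmp12 (0.80), A530099J19Rik and Ffar4. For Saa3 they were Ifitm1 (0.81), Ccl17, Il1rn, Apol7c and Pilra, and for Slpi Csf3r (0.84), Cxcl2, Ccr1, Pilrb1 and Cebpb (0.81), with Csf3r and Cxcl2 among the neutrophil markers.

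Of the 768 Smart-seq2 wells, 416 had at least 50000 reads and 500 genes, with a median of 440854 reads. C1qa, a phagocyte marker above, reached 10 CPM in 97.6% of these wells, so they do not stand for kidney cells at large. Which time point a well came from is not stated, so wells were described together and by the letter A, B or C in the column names, whose meaning is not stated either. Reads carry no molecular identifiers. Lyz2 was read in all 416 wells, from 13.5 to 64919 CPM with a median of 5987, and by letter the medians were 6413, 7462 and 5070 CPM. Lyz1 reached 10 CPM in 17 wells, 0 of 82 with letter A, 3 of 122 with B and 14 of 212 with C, and its highest wells were at 8830 and 2071 CPM. Plates of the same letter differed. The C wells were 8 of 73 on plate 3, 3 of 75 on plate 4, 2 of 48 on plate 7 and 1 of 16 on plate 8. The B wells were 0 of 75 on plate 2 and 3 of 47 on plate 6. All 17 also had Lyz2, at a median of 14051 CPM, but 1 well had Lyz1 at 453 CPM with Lyz2 at 64.0 CPM. None of the 17 wells had a Saa3 or Slpi read. Mmp12 reached 10 CPM in 7 of the 17 and in 126 of the other 399 wells, and Retnla in 3 and 6. Saa3 was read in 5 wells, at most at 147 CPM, and Slpi in 8 wells, at most at 410 CPM, and no well had reads of both.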

How the data were processed

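The files hold gene counts: per the labels' protocols the droplet libraries were made with the 10x 3' V2 workflow, and the deposited tables give UMI counts per gene and cell for 4 libraries and read counts per gene and well for the Smart-seq2 sample, whose 93 rows that name no gene were left out. The submitters' processing notes name Cell Ranger, STAR, GRCm38 and mm10. Versions are not given in the sources used here.

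The 4 genes and all lists were chosen with earlier results of these data known. A cell was kept if it had 200 genes or more and if mitochondrial UMIs made up no more than 50%. Classes came from marker scores (at least 0.15, 1.2 times the next class and 3 markers detected) and phagocyte subsets from further scores and gates, and these rules were set after the files were seen. The phagocyte cut was near, with under 1.5 times the next score, for 2, 9, 61 and 16 phagocytes. No doublet caller was run. Some gates overlap with the subsets: Mmp12 with at least 2 UMIs, and 4 of 7 genes of the Ccl8 Stab1 list. A gate and a gene that are not reported here were left out.

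With 1 library per group no test was possible. UMIs were summed over cells (numpy 2.4.6, pandas 2.3.3 and scipy 1.17.1 under Python 3.11.15), with exact Poisson intervals for CPM, exact Clopper-Pearson intervals for shares and exact conditional binomial intervals for ratios, all at 95% and for counting error only. Ratios are log2 with 1 CPM added; a gene at 0 was set to 3 UMIs for a bound. Past 2-fold was counted among genes with at least 30 UMIs in the 2 sums. Genes named beside the members were the 5 with the highest fold or correlation, or the members of the lists past 2-fold. The scripts were tested on simulated data. TMM factors (edgeR 4.0.16, R 4.3.3), another pseudocount, no filter, thinning, equal weight per cell and cells left out were tried as alternatives. Sequences were aligned with Biopython 1.88.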

Additional observations from a re-analysis of the deposited data

Results flagged for a closer look

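Slpi differed in direction between cell classes, and these differences were not tested. After reversal against day 7, Slpi was lower in phagocytes and higher in endothelium (33.1 against 7.91 CPM), a gap of 3.08 on the log2 scale, and the gaps between endothelium and T cells, proximal tubule and distal convoluted tubule were 3.44, 3.53 and 4.58. Of the 63 endothelial Slpi UMIs 59 were in 1 cell, which also had 98 S100a8 UMIs and 8 Kdr UMIs among 4565. Without that cell endothelial Slpi after reversal was at 2.11 CPM, below day 7, so the direction turned and all 4 gaps rested on it. After reversal against sham, Slpi was higher in proximal tubule (3.02 against 0.0961 CPM) and lower in phagocytes, a gap of 3.87. It rested on 19 against 1 UMIs in the tubule and 61 against 13 in phagocytes. The median reversed level was 2.49 CPM over 10 classes of at least 20 cells, the tubule included and phagocytes and neutrophils left out. Lyz1 on day 7 against day 2 was higher in C1q-high macrophages and lower in Ly6c2-high monocytes, a gap of 4.63. Of the 140 Lyz1 UMIs in day 2 monocytes of this gate, 118 were in 3 cells.

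The members were also counted in cells and barcodes that no comparison used. In unassigned cells, Lyz2 was at 273, 1304 and 800.4 CPM on day 2, day 7 and after reversal, Saa3 at 27.1 CPM on day 7, and Slpi at 58.9 and 108 CPM in the day 7 and reversed libraries. Of the 57 Saa3 UMIs of unassigned cells on day 7, 34 were in 1 cell. Of the 196 Slpi UMIs of unassigned cells after reversal, 181 were in 1 cell of 25085 UMIs that held 9885 Igkc, 1888 Igha and 1127 Jchain UMIs. In the barcodes left out by the filters, Lyz2 was at 131, 617 and 310 CPM on day 2, day 7 and after reversal, Saa3 at 9.95 CPM on day 7, and Slpi at 9.34, 9.95 and 2.41 CPM. No group had enough libraries for a check of a library far from the others.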

How the results depend on the processing

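No paired analysis was possible because each group had 1 library. Of 274 values recomputed under an alternative, 177 were labelled the same, 97 were labelled moved and 0 changed sign from a called value. For ratios, levels and shares, the same meant inside the counting interval of the reported value. The 274 included 32 counts of genes past 2-fold, which were not judged by a counting interval, and 20 of these were labelled the same. Of 158 member ratios, 7 changed side of the 2-fold line as computed with the pseudocount. Saa3 after reversal against sham stayed past it by that measure, while its bound was under 2-fold in the reported value and in every alternative that gave one. These were Lyz1, day 2 against sham, at -1.21 with equal weight per cell; Lyz1, day 7 against day 2, at -1.44 thinned; Slpi, reversed against day 7, at -0.77 with 10 CPM added and -0.98 both thinned and under a stricter phagocyte rule; and Lyz1, reversed against sham, at 0.26 with equal weight and 0.31 thinned. The causes were not tested.

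The member ratios that moved are given per comparison, as log2 ratios, or as folds over the sham floor for Saa3 against sham. On day 2 against sham, leaving out the top cell of each library gave 0.97 for Lyz1, 0.50 for Lyz2 and 5.61-fold for Saa3. Lyz2 was at 0.39 with TMM, 0.19 without the deepest 5% of phagocytes and 0.18 under the stricter rule. Saa3 was at 6.45-fold under that rule, 10.97-fold with equal weight and 2.97-fold thinned.

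On day 7 against day 2, Lyz1 was at -0.80 with equal weight. Lyz2 was at 0.11 without the top cells, 0.029 with TMM, 0.057 without the deepest cells, 0.13 under the stricter rule, -0.049 with equal weight, -0.042 thinned and -0.0018 less the level in other classes, an alternative added after seeing the data. In the order top cells, stricter rule, equal weight, thinned and other classes, Saa3 was at -0.73, -0.31, -0.94, -0.96 and -0.75. Slpi was at -0.87 with equal weight and -0.97 less other classes.

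After reversal against day 7, Lyz1 was at 2.23 with 10 CPM added, 2.28 with equal weight, 2.37 thinned, 2.28 without the deepest cells and 2.35 under the stricter rule. Lyz2 was at 0.38 without the top cells, 0.34 with TMM, 0.32 without the deepest cells, 0.45 under the stricter rule, 0.39 with equal weight and 0.48 less other classes. Saa3 was at -1.77 with 10 CPM added, -3.22 thinned and -2.85 without the deepest cells, and Slpi at -1.70 less other classes. Against sham, Lyz1 was at 3.48 without the top cells. Lyz2 was at 0.99 without them, 0.57 without the deepest cells, 0.70 with equal weight and 0.68 thinned. Saa3 was at 0.52, 0.75 and 0.14 times the floor without the top cells, without the deepest cells and thinned, and Slpi at -3.13 less other classes.

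Genes past 2-fold, higher and lower, numbered 1629 and 738 on day 2 against sham, 1008 and 301 on day 7 against day 2, 234 and 126 after reversal against day 7, and 1625 and 447 against sham. With 10 CPM added they were 631 and 308, 200 and 100, 56 and 21, and 572 and 143. With no filter they were 2910 and 1868 on day 2 against sham, and 3478 and 1220 after reversal against sham. With TMM they were 1821 and 624, 896 and 358, 211 and 143, and 1551 and 479, shifts that were not labelled as moved. Among levels by subset, 20 of 64 moved when cells had to pass 1 subset gate and no other. Of these, Saa3 in Ly6c2-high monocytes after reversal went from 232 to 0 CPM, in C1q-high macrophages on day 2 from 108 to 6.41, and Lyz1 in reversed C1q-high macrophages from 125 to 33.5 and in reversed type 2 dendritic cells from 111 to 3.39. Of 16 thinned cell shares 12 moved without thinning, and 1 of 4 well shares moved with wells of at least 200000 reads. The 68 sham phagocytes limit every comparison with sham.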

Other observations

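Of the day 7 Saa3 UMIs in phagocytes, 820 of 1271 were in 3 C1q-high cells with at least 20 Saa3 UMIs each, which were chosen after their values were seen. They made up 0.178% of phagocyte UMIs and held 21 of 26 Prg4 UMIs (lubricin) and 11 of 12 Alox15 UMIs (a lipoxygenase). They also held 179 of 2125 Fn1 UMIs and 64 of 489 Slpi UMIs, but 0 of 6 Gata6 and 1 of 5657 Ccl8 UMIs. On day 2 the corresponding 2 cells held 295 of 652 Saa3 UMIs, 115 of 2155 Fn1 UMIs and 2 of 3 Prg4 UMIs.

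The next Slpi wells of the Smart-seq2 sample after the highest, at 274 and 165 CPM, had Ly6c2 at 1509 and 1798 CPM and Siglech at 15944 and 247 CPM, and Lyz2 at 161 and 394 CPM. The highest Slpi well, at 410 CPM, had Lyz2 at 17494 CPM, Ear2 at 468 CPM and no Ly6c2 read.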
